A study of Mus musculus with 8 samples.

Results

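Most tripartite motif (TRIM) proteins are ubiquitin ligases built from a RING finger, B-box domains and a coiled coil. The genes of the family were followed in mouse liver that had received an adenovirus labelled AdLeXis or a control adenovirus labelled AdGFP. The family and the lists used below were chosen with earlier results of these data known. Members were then taken by name: every non-control array probe whose gene name is Trim followed by a number. This gave 100 probes for 67 genes, of 34947 genes on the array. After removal of dim probes, 49 TRIM genes remained among 23977 genes tested, and 42 of the 49 were well above background on all 8 arrays.

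Most TRIM proteins attach ubiquitin to their targets through the RING finger, and the domain at the C-terminal end mostly decides what they bind. Many family members are switched on by interferon and act in the innate response to viruses, either on the sensing pathways or on the virus itself. A separate branch, the TIF1 proteins, sits on chromatin and modulates transcription, and Trim24 of this branch is known in mouse liver as a co-repressor of the retinoic acid receptor.

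LeXis is a long non-coding RNA of mouse liver whose gene lies beside Abca1, the cholesterol exporter. Both groups were bl6 mice, 12 weeks old and fed chow, and liver RNA was taken on day 6. The AdGFP group (4 samples) received an adenovirus for green fluorescent protein, and the AdLeXis group (4 samples) received the LeXis adenovirus, so both groups carried a virus. The labels' treatment text instead names a pblockIT control and a pblockIT vector shRaly. Samples were grouped by the treatment tag, which gives the same groups as the titles. Nothing in the labels ties each sample to an animal of its own, so p-values below describe the scatter of these samples, part of which may be technical. No vector-free liver was among the samples.

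RNA was labelled with Cy3 and hybridised to 8 1-colour Agilent arrays on 1 slide. The AdGFP arrays filled row 1 of the slide and the AdLeXis arrays row 2, so slide row and group cannot be told apart. The AdLeXis arrays were brighter before scaling, with a 75th percentile of the processed intensity of 381 to 448 against 220 to 297. After scaling, correlations across genes, which are no independent replicates, were 0.991 to 0.994 within a group. All 6 hepatocyte markers were well above background on all 8 arrays. No probe bears the name LeXis, so its delivery was not checked by name. The largest difference over all genes was a rise of 7.37 (adjusted p = 0.000347) for an unnamed non-coding region at chr4:53217935-53230433 of build mm9, 173932 bases from the Abca1 probe, which was well above background on 1 AdGFP array and 4 AdLeXis arrays. Levels below are log2 processed intensity after each array's 75th percentile was set equal, and differences are AdLeXis minus AdGFP on that scale. A gene was called where limma's two-sided test, adjusted by Benjamini-Hochberg over all 23977 genes, gave an adjusted p under 0.05. Levels of different genes were not set against each other, since probes differ in brightness.

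Of the 49 TRIM genes tested, 15 were called (30.6%), beside 17.5% of all genes. Trim24, Trim28, Trim11, Trim47, Trim41, Trim7 and Trim59 rose (7 genes, 14.3% of those tested, beside 8.74% of all genes). Trim12a, Trim12c, Trim30a, Trim30c, Trim30d, Trim34a, Trim34b and Trim62 fell (8 genes, 16.3%, beside 8.79% of all genes). The rises ran from 0.30 to 1.15 and the falls from 0.51 to 0.85 in size. The 4 AdLeXis arrays lay wholly below the 4 AdGFP arrays for 10 TRIM genes, against 12.3% of all genes, and wholly above for 8, against 12.4% (18 TRIM genes in all, against 24.7%). Median differences were -0.08 over the 49 TRIM genes and -0.0019 over all genes. A further 7 TRIM genes had an unadjusted p under 0.05 without being called. Without AdGFP replicate 2 or without AdLeXis replicate 4 the falls numbered 5 in place of 8.

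**Figure D1:**
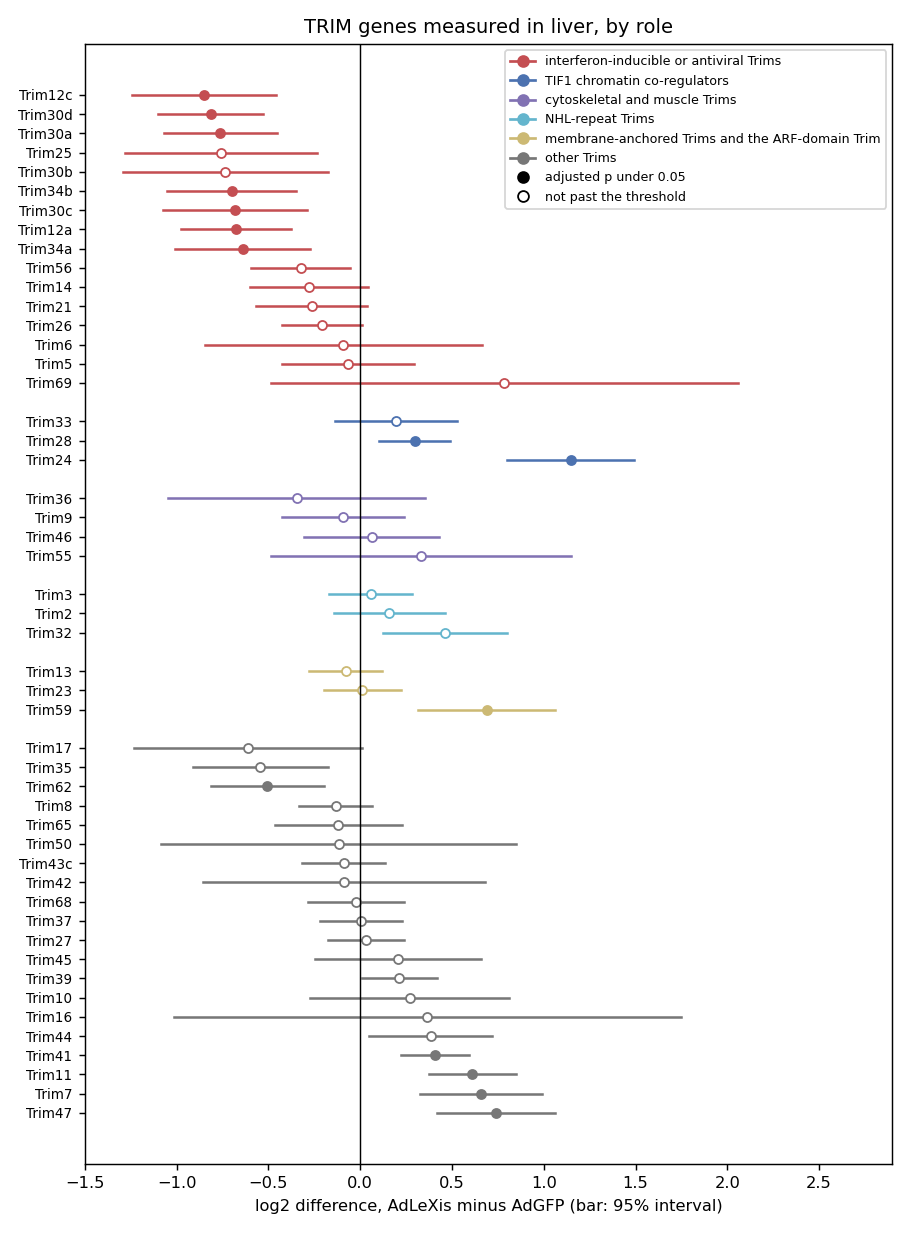
Log2 difference between groups (x axis, AdLeXis minus AdGFP) for the 49 TRIM genes tested (y axis), coloured by role, with bars for the 95% interval; filled points were called. Trim24 stands highest at 1.15, and the 7 called interferon Trims lie between -0.85 and -0.64.

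Trim24 had the greatest difference among the TRIM genes in either direction. Its level stood at 11.76, 11.36, 11.12 and 11.17 on AdGFP replicates 1 to 4 and 12.59, 12.57, 12.29 and 12.54 on AdLeXis replicates 1 to 4. The lowest AdLeXis array was above the highest AdGFP array by more than the whole range of the AdLeXis group. The mean went from 11.35 ± 0.29 to 12.50 ± 0.14 (SD, n = 4 each), a difference of 1.15 (SE 0.15, 95% interval 0.80 to 1.49; adjusted p = 0.00257), or 2.21-fold. The probe lies at chr6:37916102-37916161 of mouse build mm9, and the other kept Trim24 probe was also called higher. Trim24 was called under each of 20 alternative settings, with differences from 0.98 to 1.28. These settings include the series' deposited table, which repeats the same intensities, so its result was fixed in advance.

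The 4 TIF1 genes comprise Trim24, Trim28, Trim33 and Trim66, of which Trim66 was well above background on 1 array only and was not tested. Trim28, the co-repressor that KRAB zinc finger proteins bring to DNA, stood at 11.17, 11.34, 11.43 and 11.41 on AdGFP replicates 1 to 4 and 11.56, 11.67, 11.64 and 11.66 on AdLeXis replicates 1 to 4. Its groups did not overlap, but the distance between them was small, and its difference was 0.30 (SE 0.08; adjusted p = 0.0460). That call was lost when any 1 of the 8 arrays was left out (adjusted p 0.0508 to 0.109), and in 14 of 20 alternatives in all. Trim33, which binds SMAD proteins of TGF-beta signalling, stood at 6.82, 6.40 and 6.79 on AdGFP replicates 1 to 3 and 6.65, 6.87, 7.03 and 6.93 on AdLeXis replicates 1 to 4; the spot of AdGFP replicate 4 was an outlier and was left out. Its groups overlapped, and the difference was 0.20 with a 95% interval of -0.14 to 0.53 (adjusted p = 0.393).

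Among 11 measured retinoic acid receptors, partners and responsive genes, 1 was called (9.09%, beside 17.5% of all genes), a share below that background. Cyp26a1, the retinoic acid-induced enzyme that degrades retinoic acid, rose by 0.95 (SE 0.21; adjusted p = 0.0176), and the median over the list was -0.02.

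Interferon-inducible and antiviral Trims went the opposite way to Trim24. Of 17 on the array, 16 were tested: 7 fell (43.8%, beside 8.79% of all genes) and 0 rose. Their median was -0.66, and 15 of the 16 differences were negative, beside 12069 of 23977 over all genes. In limma's test 0 of the 16 rose at an unadjusted p under 0.05 as well. The 32 tested TRIM genes other than these and Trim24 had 6 rises and 1 fall (21.9% called, beside 17.5% of all genes). Their median was 0.06. All 7 falls came from the 10 interferon Trims of 1 gene cluster on chromosome 7 (70.0% of them, beside 8.79% of all genes), whose median was -0.69. The 6 tested interferon Trims elsewhere in the genome had 0 calls, 2 unadjusted p-values under 0.05 and a median of -0.27. The division by cluster was made after these values had been seen, and the difference between both sets was not tested.

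The cluster spans 304861 bases of mm9 from the first to the last TRIM probe (chr7:111376674-111681534) and holds 11 TRIM genes on the array, of which the pseudogene Trim30e-ps1 was detected on 0 of 8 arrays. Its TRIM genes are related to one another, grouped as the Trim30, Trim12 and Trim34 subfamilies with Trim5 and Trim6. Probes of different TRIM genes matched at no more than 31 of 60 bases in any ungapped alignment, but probes were not set against whole transcripts, so a share of signal from a neighbouring copy was not tested. Whether the probes lie in coding or untranslated exons was not analysed here.

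Trim30a and Trim30d share a promoter sequence that holds the interferon-stimulated response element. The promoters below are shown because their genes' values are compared next. Each is read 5′ to 3′ on the strand of the gene from RefSeq sequence of build GRCm38.p6, with the element in capitals, here on the strand opposite to its usual spelling.
Trim30a (chr7:104465205-104465254, reverse strand): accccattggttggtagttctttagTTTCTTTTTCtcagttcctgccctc
Trim30d (chr7:104507866-104507915, reverse strand): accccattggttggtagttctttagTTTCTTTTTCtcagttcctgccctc
Trim12c (chr7:104353354-104353403, reverse strand): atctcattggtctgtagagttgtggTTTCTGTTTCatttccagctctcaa
Trim5 (chr7:104288131-104288180, reverse strand): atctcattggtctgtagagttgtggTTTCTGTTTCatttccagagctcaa
Trim26 (chr17:36836961-36837016, forward strand): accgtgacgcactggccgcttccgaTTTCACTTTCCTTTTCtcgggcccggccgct
The Trim30a and Trim30d stretches were alike at 50 of 50 bases, and those of Trim5 and Trim12c at 48 of 50. Trim26 holds a pair of overlapping matches.

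The element was searched as a pair of GAAA runs with any 2 bases between them, on both strands, from 250 bases before to 50 bases after each annotated start, in the 51 TRIM genes that have a promoter in the table. It was found in 9 TRIM genes: 8 of 16 interferon Trims and 1 of 35 others (Trim2), beside 3.99% of 27025 genes with promoters of the same length (3.44% of 32851 promoters). Within the cluster 6 of 10 genes held it: Trim30a, Trim30d, Trim12c and Trim5 upstream of the start, and Trim12a and Trim34a from base 11 after the start. Elsewhere it was found for Trim26 and Trim21. The gamma-activated motif TTCNNNGAA was found in 6 TRIM genes, 2 of them interferon Trims (Trim30c and Trim38), beside 9.55% of all genes (8.30% of promoters), and no TRIM gene held both motifs. A match describes letters in this window and does not show that a factor binds there.

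Both genes with the identical upstream stretch fell. Trim30d stood at 10.12, 10.05, 10.11 and 10.12 on AdGFP replicates 1 to 4 and 9.60, 9.36, 9.03 and 9.15 on AdLeXis replicates 1 to 4. Trim30a, which restrains Toll-like receptor signalling, stood at 9.56, 9.77, 9.46 and 9.55 on AdGFP replicates 1 to 4 and 8.88, 9.12, 8.76 and 8.53 on AdLeXis replicates 1 to 4. In both genes every AdLeXis array was below every AdGFP array, and the AdGFP arrays were close together. The differences were -0.82 (SE 0.12; adjusted p = 0.00450) for Trim30d and -0.76 (SE 0.13; adjusted p = 0.00803) for Trim30a, and both were called under all 20 alternatives.

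Of the remaining Trim30 copies, Trim30c fell and Trim30b was not called. Trim30c, which has no response element in the window, stood at 5.66, 5.65, 5.07 and 5.31 on AdGFP replicates 1 to 4 and 4.98, 4.92, 4.47 and 4.59 on AdLeXis replicates 1 to 4. The groups were apart by a small margin, with a difference of -0.68 (SE 0.17, adjusted p = 0.0299). The call was lost with AdGFP replicate 1, 2 or 4 left out, and with AdLeXis replicate 3 or 4 left out (adjusted p 0.0506 to 0.0793). The difference was -0.27 with normexp background correction, where an added offset of 50 shrinks log2 differences of dim probes. Trim30b stood at 2.95, 3.94, 3.50 and 4.08 on AdGFP replicates 1 to 4 and 2.92, 2.65, 3.17 and 2.79 on AdLeXis replicates 1 to 4. It was well above background on 3 AdGFP arrays and 1 AdLeXis array, its groups overlapped, and its difference of -0.73 was not called (adjusted p = 0.0730; 0.0170 without AdGFP replicate 1).

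The Trim12 pair, mouse relatives of the retroviral restriction factor TRIM5, fell on each of their brightest probes. Trim12c, reported to raise interferon and NF-kappaB signalling, stood at 8.22, 8.18, 8.18 and 8.03 on AdGFP replicates 1 to 4 and 7.74, 7.46, 7.05 and 6.95 on AdLeXis replicates 1 to 4. Trim12a stood at 11.93, 11.91, 12.07 and 11.86 on AdGFP replicates 1 to 4 and 11.51, 11.45, 11.10 and 10.999 on AdLeXis replicates 1 to 4. Groups were apart in both genes, and AdLeXis replicates 3 and 4 were lower than replicates 1 and 2. The difference was -0.85 (SE 0.17; adjusted p = 0.0128) for Trim12c, the largest fall of the family, with its 3 probes between -0.85 and -0.42 and 2 of them called. For Trim12a it was -0.68 (SE 0.13; adjusted p = 0.0110), and its other probe fell by 0.61. Both genes were called under all 20 alternatives.

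Trim5 itself, whose upstream stretch nearly matches that of Trim12c, was not called. Whether its dim probe, annotated to an Ensembl transcript, reads the transcript of the RefSeq promoter shown above was not tested. Trim5 stood at 5.19, 5.23, 4.68 and 4.90 on AdGFP replicates 1 to 4 and 4.67, 4.86, 5.03 and 5.17 on AdLeXis replicates 1 to 4. Its groups overlapped over most of their range, with a difference of -0.07 and a 95% interval of -0.43 to 0.29 that does not reach the falls of Trim12a and Trim12c (adjusted p = 0.812); the difference between these genes was not tested. Trim6, which builds free ubiquitin chains in interferon signalling, stood at 4.53, 4.23, 3.12 and 3.97 on AdGFP replicates 1 to 4 and 3.81, 3.69, 3.46 and 4.54 on AdLeXis replicates 1 to 4. Its arrays were spread widely in both groups, and its interval of -0.85 to 0.67 covers falls as large as those of its neighbours as well as no change (difference -0.09, adjusted p = 0.885).

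Both Trim34 copies, interferon-responsive genes of the same cluster, fell. Trim34a stood at 10.13, 10.08, 9.94 and 9.86 on AdGFP replicates 1 to 4 and 9.35, 9.79, 9.31 and 8.996 on AdLeXis replicates 1 to 4. Trim34b, with no response element in its window, stood at 6.74, 6.75, 6.67 and 6.74 on AdGFP replicates 1 to 4 and 6.22, 6.38, 5.84 and 5.67 on AdLeXis replicates 1 to 4. The AdGFP arrays of Trim34b lay within a narrow band, and its AdLeXis arrays spread further below it. Differences were -0.64 (SE 0.16; adjusted p = 0.0298) for Trim34a, whose other probe fell by 0.75, and -0.70 (SE 0.15; adjusted p = 0.0178) for Trim34b. The Trim34a call was lost when AdGFP replicate 1, 2 or 3, or AdLeXis replicate 1, 3 or 4, was left out (adjusted p 0.0542 to 0.0757), while Trim34b was called under all 20 alternatives. In 7 of 7 called cluster genes AdLeXis replicates 3 and 4 were both below replicates 1 and 2, and the falls came to between 1.56-fold and 1.81-fold.

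**Figure D2:**
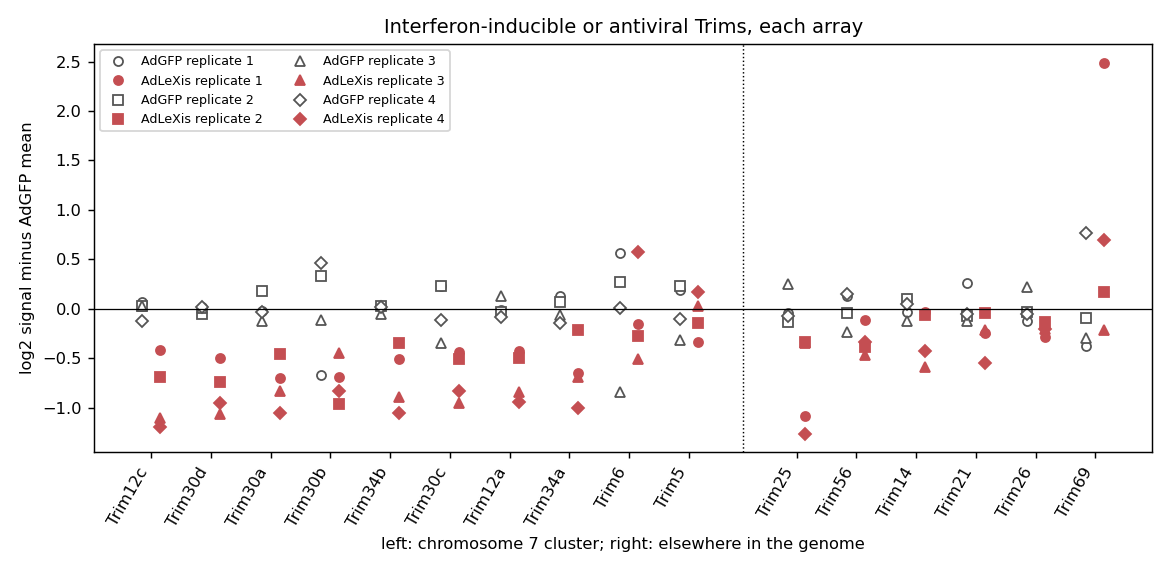
Log2 level of the 16 tested interferon Trims on each of the 8 arrays, minus the AdGFP mean of that gene (y axis), with the chromosome 7 cluster on the left and the other genes on the right. Open symbols are AdGFP arrays and filled symbols AdLeXis arrays; the 7 called cluster genes show no overlap, whereas Trim5 and Trim6 overlap and Trim69 is set apart by AdLeXis replicate 1 (level 6.83).

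Other array features of the cluster were measured too. Inside it, 5 features without a TRIM name were tested: 3 fell and 1 rose, beside 8.79% falls and 8.74% rises over all genes. For 2 of the 3 falls the probe overlaps the Trim30c probe on the same strand, so they read the Trim30c stretch again (-0.64 and -0.88, adjusted p = 0.0488 and 0.00566) and are no separate features. The third, an unnamed reverse-strand transcript between the Trim30b and Trim30c probes, fell by 0.87 (adjusted p = 0.00944). A forward-strand probe at chr7:111542838-111542897, between the Trim30c and Trim30a probes, rose by 0.63 (adjusted p = 0.00308). Within 300 kb on either side, 8 features were tested, olfactory receptors and Ubqln5 among them. They had 0 calls in limma's test, 0 unadjusted p-values under 0.05 and differences from -0.25 to 0.46. All 8 were dim, with group means from 3.28 to 5.78. Since 17.5% of all genes were called, 0 calls among 8 dim features cannot show that the falls end at the cluster.

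Interferon Trims outside the cluster were led by Trim25, the ligase that ubiquitinates the RNA sensor RIG-I. It stood at 16.20, 16.11, 16.49 and 16.17 on AdGFP replicates 1 to 4 and 15.15, 15.91, 15.90 and 14.98 on AdLeXis replicates 1 to 4. No AdLeXis array reached the AdGFP range, yet the AdLeXis arrays were spread, with replicates 1 and 4 far below replicates 2 and 3. The difference was -0.76 (SE 0.23; adjusted p = 0.0536) and was not called, although it was without AdLeXis replicate 2 or 3 (adjusted p 0.0383 to 0.0414). A further Trim25 probe differed by -0.04 only, so the value rests on 1 of 2 probes.

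Trim56, which promotes signalling through STING, stood at 11.61, 11.43, 11.24 and 11.63 on AdGFP replicates 1 to 4 and 11.36, 11.09, 11.01 and 11.14 on AdLeXis replicates 1 to 4. Trim26, a ligase for the transcription factor IRF3, stood at 11.67, 11.77, 12.02 and 11.74 on AdGFP replicates 1 to 4 and 11.51, 11.67, 11.59 and 11.59 on AdLeXis replicates 1 to 4. The arrays of Trim56 overlapped and those of Trim26 just failed to. Differences were -0.32 (adjusted p = 0.0967; other probe -0.11) and -0.21 (adjusted p = 0.170). Neither was called.

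Trim14, an adaptor of the mitochondrial antiviral protein MAVS, stood at 10.78, 10.92, 10.70 and 10.87 on AdGFP replicates 1 to 4 and 10.79, 10.76, 10.23 and 10.39 on AdLeXis replicates 1 to 4. Trim21, the antibody receptor of the cytosol, stood at 9.65, 9.32, 9.26 and 9.33 on AdGFP replicates 1 to 4 and 9.14, 9.35, 9.17 and 8.84 on AdLeXis replicates 1 to 4. Both sets of arrays overlapped, with AdLeXis replicates 3 and 4 lowest for Trim14 and AdLeXis replicate 4 lowest for Trim21. The differences were -0.28 (95% interval -0.60 to 0.04) and -0.27 (95% interval -0.57 to 0.04), each with an adjusted p of 0.210. Trim69 stood at 3.96, 4.24, 4.04 and 5.10 on AdGFP replicates 1 to 4 and 6.83, 4.50, 4.12 and 5.03 on AdLeXis replicates 1 to 4. A single high array, AdLeXis replicate 1, set its difference of 0.79, whose interval ran from -0.49 to 2.06 (adjusted p = 0.377), the only positive difference among the interferon Trims. Trim38 was well above background on 2 arrays and was not tested.

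Beside the Trims, interferon signalling and sensor genes were examined as a list: 7 of 20 fell (35%, beside 8.79% of all genes). In limma's test 0 rose, also at an unadjusted p under 0.05, and the median was -0.23. Isg15, the interferon-induced ubiquitin-like modifier, fell by 1.66 (adjusted p = 0.00420), and Irf7, the amplifier of type I interferon, by 1.14 (adjusted p = 0.00237). The DNA-sensing adaptor Sting1 fell by 0.80 (adjusted p = 0.00230) and the RNA sensor Ifih1 by 0.64 (adjusted p = 0.0134). Of 11 genes for ubiquitin-conjugating partners of RING ligases, 1 was called (9.09%, beside 17.5% of all genes). Ube2l6, the conjugating enzyme for Isg15, fell by 0.46 (adjusted p = 0.0282), a call lost when AdGFP replicate 1, 2 or 3, or AdLeXis replicate 3 or 4, was left out (adjusted p 0.0602 to 0.0755). Their median was -0.11.

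Markers of several cell types were lower on the AdLeXis arrays too. Of 14 T and NK cell markers, 12 fell (85.7%, beside 8.79% of all genes), with a median of -1.02. Among them were Cd3d of the T cell receptor complex (-1.31) and Nkg7 of cytotoxic granules (-1.09). The summed linear signal of the 14 markers ran from 20573 to 21431 on AdGFP arrays and from 10775 to 11466 on AdLeXis arrays. These ranges were far apart. The NK receptor genes Ncr1 and Klrb1c differed by 0.73 and -0.05 and were not called. Of 9 Kupffer cell and macrophage markers 3 fell (33.3%), with a summed signal of 48491 to 67525 against 41610 to 51928. The highest difference of that list was 0.50 (Vsig4, not called), and 7 of its 9 differences were negative. Leaving out AdGFP replicate 1, AdGFP replicate 2 or AdLeXis replicate 2 gave 1 fall, and leaving out AdGFP replicate 3 gave 5. Of 3 tested dendritic cell markers 2 fell (66.7%), while Xcr1 was too dim to test. In limma's test 0 of 4 B cell, 0 of 3 neutrophil, 0 of 5 endothelial and 0 of 3 erythroid markers were called, with 1 unadjusted p under 0.05 among these 15.

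Some markers of hepatocytes (66.7%), stellate cells (40%) and bile duct (25%) were called lower as well, beside 8.79% of all genes. Of 6 hepatocyte markers 4 fell, Apoa1, Alb, Serpina1c and Ttr, with a median of -0.46 and a summed signal of 1414618 to 1470069 on AdGFP arrays against 927852 to 1077340 on AdLeXis arrays. With quantile scaling 1 of them fell and their median was 0.0014, so the direction of this list depends on the scaling. Of 5 stellate cell markers 2 fell, a count of 0 or 1 when any array other than AdGFP replicate 3 was left out. Of 4 bile duct markers 1 fell. The highest differences of the hepatocyte, stellate and bile duct lists were 0.03 (Hnf4a), 0.17 (Lrat) and 0.31 (Sox9), none of them called. The part of these cells in the falls of the Trims was not tested. In bulk liver, fewer cells of a type and less RNA per cell cannot be told apart.

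Array by array, the mean of the 10 cluster genes relative to AdGFP was -0.48, -0.48, -0.73 and -0.71 on AdLeXis replicates 1 to 4. The corresponding means of the T and NK markers were -0.73, -0.89, -0.89 and -0.73, and those of the interferon signalling genes -0.31, -0.24, -0.38 and -0.50. The cluster, the interferon signalling genes and the interferon Trims elsewhere were lowest on AdLeXis replicates 3 and 4. The T and NK markers were lowest on AdLeXis replicates 2 and 3, and the Kupffer cell and macrophage markers on AdLeXis replicates 2 and 4. For the interferon Trims elsewhere the means were 0.12, -0.13, -0.34 and -0.35, and for the remaining Trims 0.11, 0.09, 0.03 and 0.19.

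**Figure D3:**
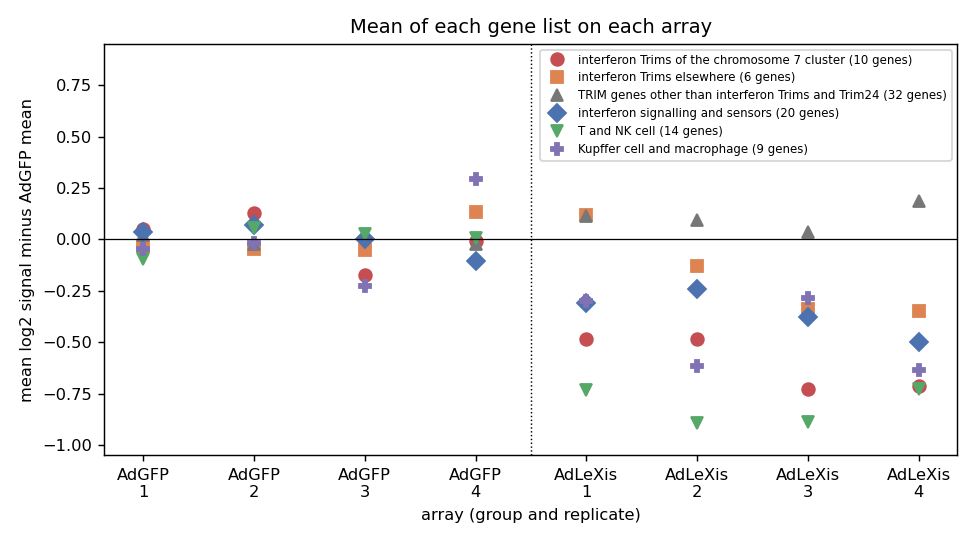
Mean log2 level of each gene list on each array minus its AdGFP mean (y axis), for 8 arrays (x axis). On all 4 AdLeXis arrays the chromosome 7 cluster (10 genes) is below its AdGFP arrays, at -0.48 to -0.73, and the T and NK markers (14 genes) lie at -0.73 to -0.89.

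Of the 32 tested TRIM genes other than interferon Trims and Trim24, 6 rose and 1 fell (21.9% called, beside 17.5% of all genes). With median scaling fewer of them rose and more fell. Trim11, linked to the clearing of misfolded proteins, stood at 11.77, 11.73, 11.43 and 11.51 on AdGFP replicates 1 to 4 and 12.20, 12.35, 12.16 and 12.17 on AdLeXis replicates 1 to 4. Trim47 stood at 10.43, 10.40, 10.31 and 10.75 on AdGFP replicates 1 to 4 and 10.93, 11.28, 11.17 and 11.47 on AdLeXis replicates 1 to 4. Every AdLeXis array was above every AdGFP array in both. The differences were 0.61 (SE 0.10; adjusted p = 0.00648) and 0.74 (SE 0.14; adjusted p = 0.0106), and the other Trim47 probe rose by 0.89. Trim11 was called under all 20 alternatives and Trim47 under 19, the exception being normexp background correction (0.53).

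Trim7, a partner of the glycogen primer glycogenin, stood at 7.42, 6.78, 7.04 and 6.90 on AdGFP replicates 1 to 4 and 7.62, 7.78, 7.55 and 7.82 on AdLeXis replicates 1 to 4. Trim41, a ligase for protein kinase C, stood at 13.36, 13.53, 13.35 and 13.57 on AdGFP replicates 1 to 4 and 13.88, 13.86, 13.83 and 13.86 on AdLeXis replicates 1 to 4. Trim41 was almost level over the AdLeXis arrays, and in both genes the groups did not overlap. Trim7 differed by 0.66 (SE 0.15; adjusted p = 0.0182), with the other probe at 0.59. It lost its call without AdLeXis replicate 4 (adjusted p = 0.0525) and with normexp background correction, where the difference was 0.29. Trim41 differed by 0.41 (SE 0.08; adjusted p = 0.0128) and was called in 19 of 20 alternatives.

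Trim59, which is anchored in the endoplasmic reticulum membrane, stood at 7.09, 7.14, 6.86 and 7.07 on AdGFP replicates 1 to 4 and 7.67, 7.81, 7.31 and 8.12 on AdLeXis replicates 1 to 4. Trim62, linked to epithelial polarity, stood at 6.16, 6.09, 5.75 and 6.15 on AdGFP replicates 1 to 4 and 5.71, 5.37, 5.70 and 5.34 on AdLeXis replicates 1 to 4. The groups were apart in both genes, in opposite directions. Trim59 differed by 0.69 (SE 0.16; adjusted p = 0.0238), with its other probe at 0.87, and lost its call when AdGFP replicate 1 or 3, or AdLeXis replicate 2, was left out (adjusted p 0.0517 to 0.0592). Trim62, the only fall outside the cluster, differed by -0.51 (SE 0.13; adjusted p = 0.0357) and lost its call when AdGFP replicate 1, 2 or 4, or AdLeXis replicate 2 or 4, was left out (adjusted p 0.0813 to 0.0918).

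**Figure D4:**
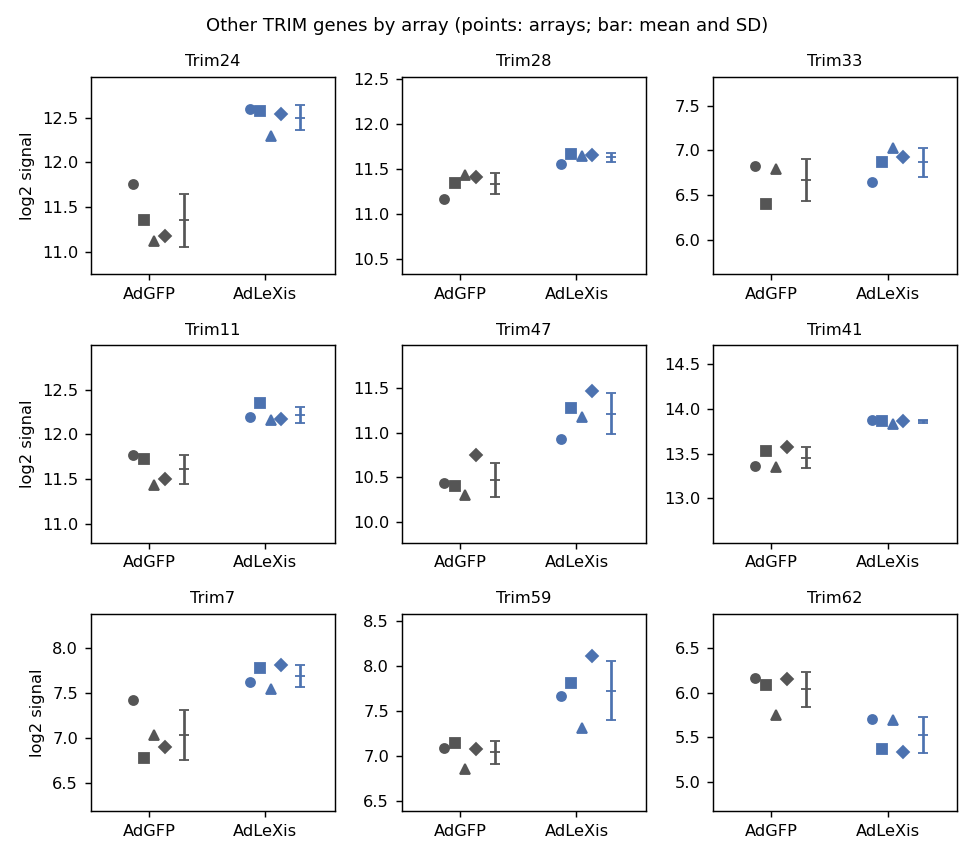
Log2 level on each array (y axis) by group (x axis), with a panel for each tested TIF1 gene and each other called TRIM gene outside the interferon list. Points are arrays, grey for AdGFP and blue for AdLeXis, and bars give the mean and SD. Trim24 is the farthest above its AdGFP arrays, Trim62 lies below them, and Trim33 has 3 AdGFP points because 1 spot was left out.

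The remaining Trims were not called. Of the 4 NHL-repeat Trims, known for binding RNA and for roles in neurons and muscle, 3 were tested with 0 calls in limma's test and 1 unadjusted p under 0.05. Of 8 cytoskeletal and muscle Trims, 4 were tested with 0 calls and 0 unadjusted p-values under 0.05; Trim63, the ligase of muscle atrophy, was well above background on 1 array and was not tested. The brightest of the uncalled genes outside the TIF1 and interferon lists were Trim44, Trim27, Trim2, Trim8 and Trim32. Trim44, which carries a zinc finger of deubiquitinases in place of the RING, differed by 0.38 (95% interval 0.05 to 0.72; adjusted p = 0.109; 0.0450 without AdGFP replicate 3). Trim32, a muscle ligase with NHL repeats, differed by 0.46 (95% interval 0.12 to 0.80; adjusted p = 0.0651; 0.00960 without AdLeXis replicate 1). Trim27, Trim2 and Trim8 differed by 0.03 (95% interval -0.17 to 0.24), 0.16 (-0.14 to 0.46) and -0.13 (-0.34 to 0.07).

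Trim35, named here after its values were seen, was the nearest to the threshold among the uncalled genes outside the interferon list. Its difference was -0.54 (95% interval -0.91 to -0.17; adjusted p = 0.0515), its groups overlapped, and it was called lower in 6 of 20 alternatives, among them those without AdGFP replicate 3 or AdLeXis replicate 2 (adjusted p 0.0375 to 0.0494).

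Probes of the same gene disagreed for Trim65, named here after its values were seen: its brighter probe differed by -0.12 and the other by 0.38, the latter passing limma's test over probes. Of the 18 TRIM genes not tested, 10 were not well above background with any probe on any array, so their levels have only an upper bound here.

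TRIM proteins that carry other names were examined as well. Mefv (pyrin), an inflammasome sensor, fell by 0.62 (SE 0.11; adjusted p = 0.00888). Pml, the organiser of nuclear bodies and an interferon-induced gene, differed by -0.31 (adjusted p = 0.0751; 0.0297 without AdLeXis replicate 2). The microtubule-associated Mid1 and Mid2 differed by -0.11 (adjusted p = 0.894) and 0.31 (adjusted p = 0.161) and were not called.

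The directions of the 15 called genes were the same under each of 5 ways of scaling, but the split of calls was not. With each array's median set equal in place of its 75th percentile, 4 TRIM genes rose and 12 fell, against 7 and 8, and over all genes 1157 rose and 2683 fell, against 2095 and 2107.

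**Figure D5:**
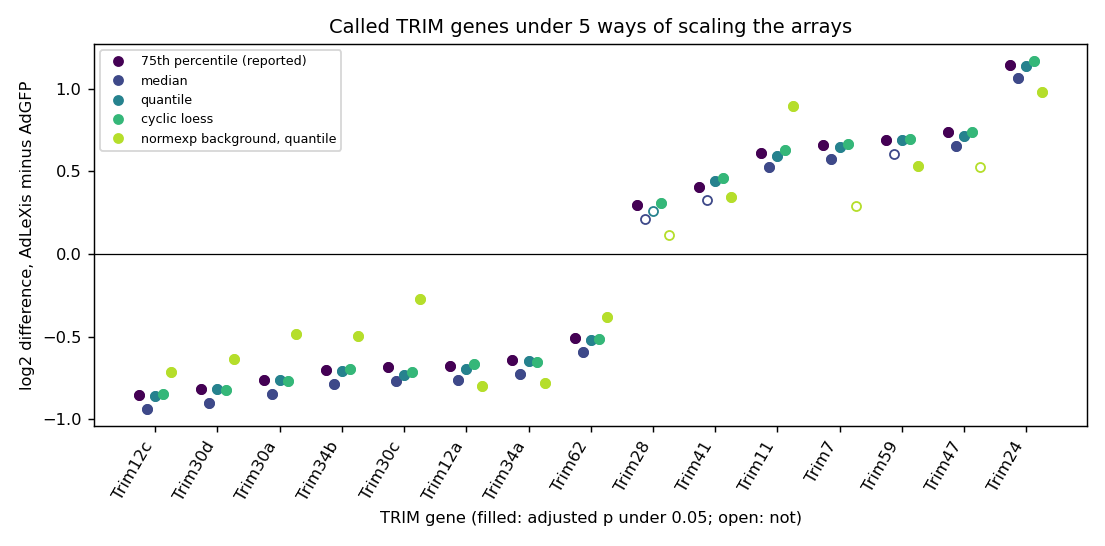
Log2 difference (y axis) of the 15 called TRIM genes (x axis) under 5 scalings, filled where called. All 15 keep their direction, Trim24 stays between 0.98 and 1.17 here, and Trim28 is called under 2 of the 5.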

How the data were processed

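Liver RNA of 8 samples, 4 per group, was measured on 1-colour Agilent arrays. Spot intensity in the scanner files is linear; per the file headers, background was subtracted and spatial trends were removed within arrays, with no scaling between them (Feature Extraction 11.5.1.1, mouse build mm9). The submitters' processing notes give version 11.5.1.11. The series' deposited table repeats this intensity, with column medians of 12.7 to 27.7.

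Each array's log2 intensity was set to a common 75th percentile, and control and outlier spots were left out. Probes had to be well above background on 4 or more arrays, with 2 or more measured arrays in each group. The brightest kept probe stood for a gene, which decides values where probes of a gene disagree. Names were updated through the RefSeq table of GRCm38.p6: 27650 probes by accession and 3406 by symbol, while 24625 kept the array's own name. AdLeXis was compared with AdGFP in limma 3.58.1 under R 4.3.3 (lmFit, then eBayes), with group as the only term; the fit was tested on simulated data. Only 4 arrays per group limit the precision, and 0 spots were saturated.

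Scaling, background correction, probe filter, probe choice, variance model, replicate block and each left-out array were varied. Normexp background correction used an added offset of 50 and was followed by quantile scaling. Same-numbered samples of the groups shared a slide column. They deviated together only weakly (correlations 0.0017 to 0.117, against -0.100 to 0.100 for unlike numbers), so replicate numbers were not taken as pairs. Every tested TIF1, interferon or called Trim is named, with the 5 brightest of the rest. The members and lists were chosen with earlier results of these data known.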

Additional observations from a re-analysis of the deposited data

Results flagged for a closer look

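In 97 groups of 4 arrays, 1 per TRIM gene and condition, 3 had an array set far from the others; chance alone gives about 1 in 20. AdGFP replicate 3 was low for Trim34b (6.67, nearest other array 6.74) and for Trim62 (5.75, nearest 6.09), both called genes. AdLeXis replicate 1 was low for Trim27 (11.30, nearest 11.57), which was not called.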

How the results depend on the processing

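Trim24 was called under all 20 alternatives, and no called TRIM gene changed direction under them. The medians of both sets of interferon Trims stayed negative. That of the TRIM genes outside the interferon list and Trim24 was -0.023 with median scaling and 0.0078 with normexp. With median scaling 4 TRIM genes rose, 3 of them outside the interferon list and Trim24. Without a filter on dim probes 5 TRIM genes fell. Falls among interferon Trims elsewhere numbered 2 with median scaling and 1 with normexp, with detection on all 8 arrays required, or with a variance trend. Falls among the remaining Trims numbered 2 with median scaling, cyclic loess, normexp, detection on all 8 arrays or a variance trend, and 0 without a filter or with the replicate block. The cluster median was -0.49 with normexp.

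With each array left out in turn, TRIM rises numbered 5 to 7 and falls 5 to 9, cluster falls 5 to 7, falls elsewhere 0 to 1, and rises and falls of the remaining Trims 4 to 6 and 0 to 3. The cluster median ran from -0.76 to -0.61, that of the interferon Trims elsewhere from -0.32 to -0.22, that of the remaining Trims from 0.045 to 0.096, and Trim24 from 1.07 to 1.28. The replicate block gave 5 rises and 7 falls of TRIM genes and 4 falls of interferon signalling genes in place of 7, and over all genes 1523 rose and 1627 fell. The calls of Trim7, Trim28, Trim62, Cyp26a1 and Ifih1 were lost with it. Over all genes, leaving out an array gave 1206 to 2056 rises and 1285 to 2068 falls. Using the series value table changed no value. The lists and genes that are no Trims were recomputed under the same settings after their values had been seen: the hepatocyte marker median was 0.0014 with quantile scaling against -0.46. The cause of these shifts was not tested.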

Other observations

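TRIM genes of chromosome 11 were counted after their values had been seen. Of 9 tested, 4 rose (Trim7, Trim11, Trim41 and Trim47) and 0 fell in limma's test, beside 9.87% rises and 9.52% falls over all tested genes of that chromosome. Trim41 and Trim7 have neighbouring probes 43631 bases apart and both rose. Trim17 and Trim11 are 19974 bases apart, and Trim17 differed by -0.61 (adjusted p = 0.161; 0.0321 without AdGFP replicate 3) while Trim11 rose by 0.61. Trim47 and Trim65 are 20653 bases apart, and Trim47 rose by 0.74 while the brighter Trim65 probe differed by -0.12.

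The Trim8 probe was spotted 10 times on each array. After outlier spots were left out, 7 to 10 spots per array remained, and their SD ran from 0.033 to 0.069 on the log2 scale, a measure of spotting and reading error within an array only.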
